A study of Mus musculus with 16 samples.

Results

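The serpins of mouse liver were followed here across 4 groups of mice that differed in diet and in a CYP7A1 transgene. Every gene whose array annotation carries a symbol of the form Serpin, a clade letter from a to i and a number was taken as a member. This gave 49 serpin genes read by 60 probe rows, of 16584 named genes on 25697 rows of the array. Where several rows read 1 gene, the brightest by mean signal was used. Extra rows of a serpin held identical values on all arrays, except those of Serpinb12, so each other serpin rests on 1 distinct row. Values are the deposited log2 signals, and a member was tested where its mean over the 16 arrays lay above the median of all rows (6.25). Of the 49 members, 20 passed that filter among 7801 genes tested in all, and 29 lay at or under it.

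The 16 mice were male C57BL/6, with 1 array of total liver RNA per mouse and 4 mice per group. Tg_WD mice were labelled as CYP7A1 transgenic and ate a Western diet (42% of calories from fat, 0.2% cholesterol), and WT_WD mice were wild type on the same diet. Tg_Chow mice were labelled transgenic and ate standard chow, and WT_Chow mice were wild type on chow. Per the labels the transgenic and wild-type mice were littermates, were 12 to 14 weeks old when they were put on the diet, ate it for 4 months and lived in individual cages. Their age is also labelled as 6 months, and livers were collected after a fast of about 16 h. The labels used here give neither the promoter nor the species of the transgene.

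Serpins are proteins that share a fold with an exposed reactive loop. An inhibitory serpin offers this loop to a target protease, which cuts it and is then trapped in a covalent complex that liver receptors clear from plasma. The liver secretes most plasma serpins, among them alpha-1-antitrypsin, antithrombin and C1 inhibitor. Some members have lost the inhibitory function and carry hormones instead. Clade B serpins act mainly inside cells, where they guard against proteases that leak from granules and lysosomes.

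The gene the transgene is named for was lower in the mice labelled transgenic. Cyp7a1, the rate-limiting enzyme of bile acid synthesis, lay at 6.196 to 7.33 in Tg_WD against 10.004 to 12.41 in WT_WD, and at 6.43 to 7.84 in Tg_Chow against 11.30 to 12.27 in WT_Chow, on 1 probe. No source used here says whether that probe reads the transgene, and if it does not, it is no check of the labels. Every direction between genotypes below therefore rests on the labels, and Tg and WT stand for the labelled genotypes. Raw mean signal ran from 348.1 to 446.6 per array. The Spearman correlation between arrays was 0.931 to 0.953 within groups and 0.918 to 0.942 between groups. Dim signals differed within groups, with a 5th percentile of 58.3 (raw, mean) on replicates 1 and 2 and of 53.6 on replicates 3 and 4, so fold changes were also taken within each pair of replicates, 2 arrays a group. Summed signals of 9 liver markers overlapped between the groups, at 108206 to 117923 in Tg_WD, 111081 to 118967 in WT_WD, 112940 to 119448 in Tg_Chow and 109217 to 115679 in WT_Chow, with Fgb under the filter. Most of this sum came from Apoa1, Ttr, Ahsg and Cyp2e1, with group means of 14.31 to 14.67, near the arrays' shared top value of 14.83. It is therefore a weak check of tissue makeup.

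Signal above the filter was found mostly in the clades that the liver secretes. Of 16 clade A genes 12 were tested. So were the single genes of clades C, D and G (Serpinc1, Serpind1 and Serping1) and both clade F genes (Serpinf1 and Serpinf2). Of 25 clade B genes only Serpinb1a, Serpinb6a and Serpinb6b were tested. The untested clade A genes were Serpina1f, Serpina3b, Serpina5 and Serpina9. Serpinh1, the collagen chaperone of the endoplasmic reticulum, averaged 6.22 and lay just under the filter, as the highest of the untested members. Serpini1, which encodes the neuronal inhibitor neuroserpin, averaged 5.97, and Serpini2 averaged 5.82. The 22 untested clade B genes averaged 5.73 to 6.16. On single arrays no untested member passed 6.41, and group means of an untested member lay within 0.203 of each other. These are levels near background, so they do not show that the genes are silent.

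**Figure D1:**
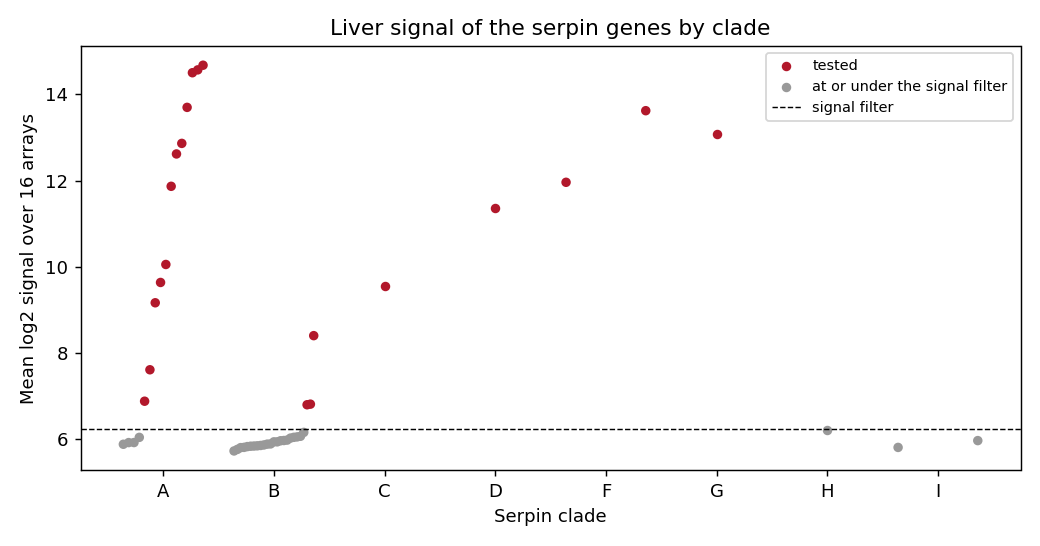
Mean log2 signal over the 16 arrays (vertical axis) of each of the 49 serpin genes by clade (horizontal axis). Red points are the 20 tested genes, grey points the 29 genes at or under the filter, which the dashed line marks at 6.25. Clade A spans 5.89 to 14.68 and most clade B genes sit under the line, and since each point is a different probe, heights do not rank the genes by amount of RNA.

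By RefSeq's GRCm38.p6 annotation, 15 of the clade A genes lie on chromosome 12, where the 5 alpha-1-antitrypsin copies follow each other in the order Serpina1b, Serpina1d, Serpina1a, Serpina1c and Serpina1e. Serpina7 lies on chromosome X. Of the clade B genes 14 lie on chromosome 13, all 3 tested ones among them.

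Serpins changed with genotype and with diet, in both directions. With limma and a Benjamini-Hochberg adjusted p under 0.05 over all 7801 genes, 15 of the 20 tested members were called in at least 1 of the 5 comparisons, against 34.8% of all tested genes. Tg over WT on the Western diet gave 7 higher and 3 lower members of 20, where 6.77% of all tested genes were called higher and 8.29% lower. The median log2 fold change was 0.17 over the members and 0.02 over all genes. Tg over WT on chow gave 2 higher and 4 lower, against 4.59% higher and 5.42% lower over all genes, with medians of 0.01 and -0.002.

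In WT, Western diet over chow gave 4 higher and 5 lower members, against 10.3% and 9.2% of all genes in these directions, with medians of -0.03 and -0.04. In Tg, Western diet over chow gave 4 higher and 1 lower, against 4.86% and 4.95% of all genes, with medians of 0.12 and -0.01. The interaction, the genotype difference on the Western diet minus that on chow, was called for 5 members, 3 positive and 2 negative, where 5.22% of all genes were called. Its median was 0.32 over the members and 0.02 over all genes. Without Tg_WD replicate 2 the diet comparison in Tg called 3 members. The interaction called 3 without WT_Chow replicate 3, Tg_Chow replicate 4, WT_WD replicate 2, WT_WD replicate 3 or Tg_WD replicate 1. The comparisons share groups (WT_WD, for one, stands in a genotype and in a diet comparison), so their calls are not independent of each other. With median scaling of the scanner signals in place of the deposited values, calls over all genes turned mostly lower between genotypes (279 higher and 1091 lower on the Western diet, 172 and 956 on chow) and more often higher between diets (888 and 510 in WT, 363 and 220 in Tg). The deposited values gave 528 and 647, 358 and 423, 804 and 718, and 379 and 386. No called member changed direction with that scaling.

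**Figure D2:**
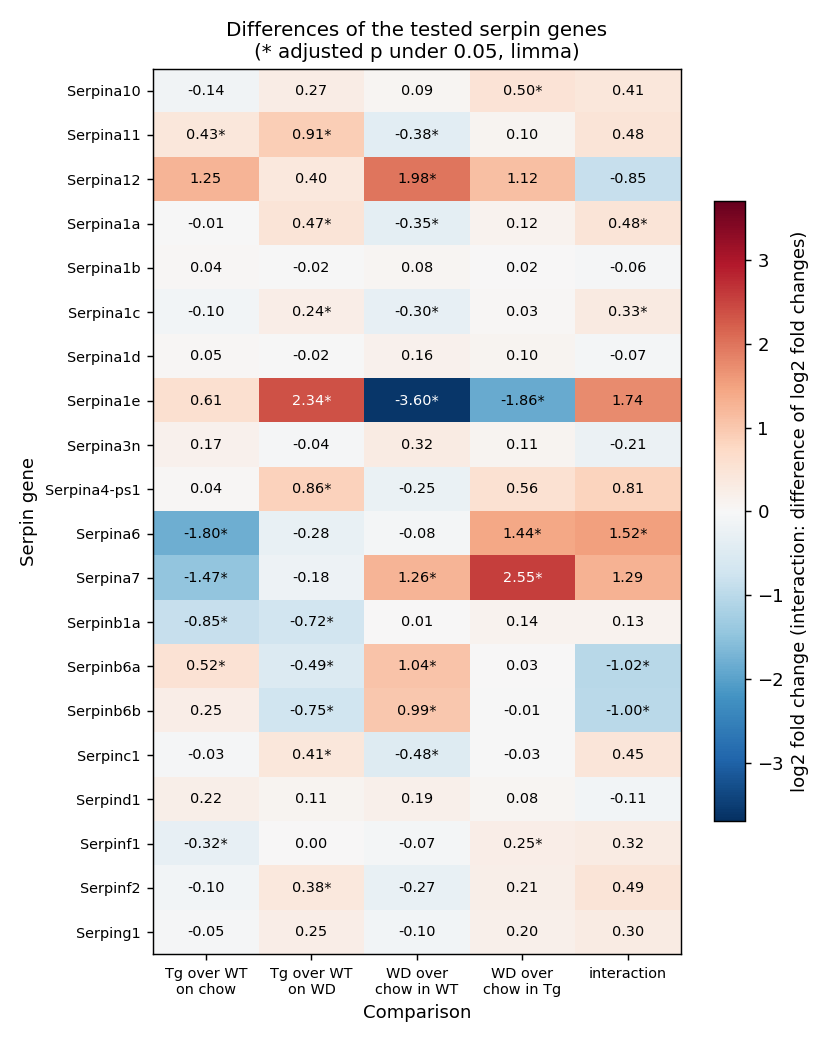
Log2 fold changes (colour and printed value) of the 20 tested serpin genes (rows) in the 4 comparisons of groups and the interaction (columns), with an asterisk where the limma adjusted p was under 0.05. The deepest colour is that of Serpina1e for diet in WT, at -3.60, followed by Serpina7 for diet in Tg, at 2.55, and Serpina6 and Serpina7 are blue on chow between genotypes and red between diets in Tg.

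Alpha-1-antitrypsin, the plasma inhibitor of neutrophil elastase, is encoded in mice by several near-identical genes, and 5 of them were tested. Their upstream sequences are shown because copies that look alike here gave different signals below. From the RefSeq promoter table (GRCm38.p6), each sequence is 162 bases of the minus strand of chromosome 12, written 5′ to 3′. It ends in a 12-base element, in capitals, of the type that the liver factor HNF1 binds. The element ends 9, 14, 15, 4 and 66 bases before the annotated gene start of Serpina1a, Serpina1b, Serpina1c, Serpina1d and Serpina1e.
Serpina1a (chr12:103863629-103863790): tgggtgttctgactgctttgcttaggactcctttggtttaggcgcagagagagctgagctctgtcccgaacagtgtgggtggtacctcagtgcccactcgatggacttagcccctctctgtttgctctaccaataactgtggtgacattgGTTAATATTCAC
Serpina1b (chr12:103738204-103738365): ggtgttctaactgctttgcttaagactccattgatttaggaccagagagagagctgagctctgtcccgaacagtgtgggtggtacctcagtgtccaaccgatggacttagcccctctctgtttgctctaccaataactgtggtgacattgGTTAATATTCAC
Serpina1c (chr12:103904966-103905127): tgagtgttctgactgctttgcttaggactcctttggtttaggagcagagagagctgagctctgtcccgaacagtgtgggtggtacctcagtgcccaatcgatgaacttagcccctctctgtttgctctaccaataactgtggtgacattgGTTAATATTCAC
Serpina1d (chr12:103773638-103773799): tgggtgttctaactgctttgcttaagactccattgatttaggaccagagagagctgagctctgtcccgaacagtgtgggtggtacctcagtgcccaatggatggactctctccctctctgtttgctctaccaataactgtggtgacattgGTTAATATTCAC
Serpina1e (chr12:103956964-103957125): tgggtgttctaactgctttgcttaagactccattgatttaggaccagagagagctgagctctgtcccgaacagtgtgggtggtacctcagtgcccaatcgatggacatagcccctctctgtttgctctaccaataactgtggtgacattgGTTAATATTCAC

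Between any 2 copies 4 to 12 of the 162 aligned positions differed (92.6% to 97.5% identity). Serpina1e was 95.1% identical to Serpina1a, 96.9% to Serpina1b, 95.1% to Serpina1c and 96.3% to Serpina1d. The letters of the capital element were taken from the Serpina1a promoter, so its match there was fixed in advance. Searched on both strands of the 300-base promoters of the table, they were found in 5 of 32851 promoters (0.0152%), the 5 copies themselves. Only exact matches were counted, so this share leaves out other sites that HNF1 may bind. The forkhead-type core TGTTTGC was found in 5.07% of all promoters and in 6 of the 15 tested serpin genes that the table holds, the 5 copies and Serpinb6b. The STAT-type motif TTCNNNGAA was found in 8.3% of all promoters and in 2 of those 15 genes, Serpina11 and Serpinb6a. A match is a run of letters and not a measured site.

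Of the 5 copies Serpina1e changed by far the most, and it fell on the Western diet in both genotypes. Its log2 signals were 12.00, 13.32, 13.67 and 11.69 in Tg_WD and 10.003, 10.15, 10.30 and 10.85 in WT_WD. On chow they were 14.78, 14.09, 14.80 and 14.47 in Tg_Chow and 13.19, 13.76, 14.44 and 14.32 in WT_Chow. The WT_WD arrays lay below all others, the Tg_WD arrays came next, were the most scattered and reached into the WT_Chow range, and the Tg_Chow arrays overlapped WT_Chow. The Western diet effect was -3.60 in WT (SE 0.37, 12.1-fold lower, limma adjusted p = 5.904e-06) and -1.86 in Tg (SE 0.37, 3.64-fold lower, limma adjusted p = 0.00488). Between genotypes it was 2.34 (Tg over WT) on the Western diet (SE 0.37, 5.07-fold higher, limma adjusted p = 0.000407). On chow it was 0.61, which did not pass (limma adjusted p = 0.3258). The diet effect was larger in WT by 1.74 on the log2 scale (SE 0.53), and this interaction did not pass either (limma adjusted p = 0.0688).

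Serpina1a and Serpina1c were, like Serpina1e, higher in Tg than in WT on the Western diet and lower on the Western diet in WT, by much less. In Tg, where Serpina1e fell, their diet differences were 0.12 and 0.03 and did not pass (limma adjusted p = 0.4326 and limma adjusted p = 0.7671). Serpina1a was 13.82, 13.94, 13.94 and 13.79 in Tg_WD against 13.19, 13.43, 13.38 and 13.63 in WT_WD. It was 13.79, 13.61, 13.88 and 13.73 in Tg_Chow against 13.58, 13.82, 13.79 and 13.86 in WT_Chow. All Tg_WD arrays lay above WT_WD, while the chow groups overlapped. The genotype difference on the Western diet was 0.47 (SE 0.092, 1.38-fold higher, limma adjusted p = 0.002129). The diet difference in WT was -0.35 (SE 0.092, limma adjusted p = 0.01219), with overlapping arrays. The interaction was 0.48 (SE 0.13, limma adjusted p = 0.04042). It was lost with normexp-corrected scanner signals (0.47, adjusted p = 0.05351), with no filter on dim rows (adjusted p = 0.05453) and without any 1 of 13 arrays (adjusted p 0.05144 to 0.0895), all but WT_Chow replicate 1, Tg_Chow replicate 3 and WT_WD replicate 4.

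Serpina1c was 14.75, 14.73, 14.73 and 14.69 in Tg_WD against 14.41, 14.56, 14.44 and 14.54 in WT_WD. It was 14.70, 14.69, 14.66 and 14.73 in Tg_Chow against 14.80, 14.80, 14.80 and 14.78 in WT_Chow. WT_WD held the lowest arrays and WT_Chow the highest, with no overlap between any of the pairs compared but Tg_WD and Tg_Chow. Tg over WT on the Western diet was 0.24 (SE 0.055, limma adjusted p = 0.006695), Western diet over chow in WT was -0.30 (SE 0.055, limma adjusted p = 0.000929), and the interaction was 0.33 (SE 0.078, limma adjusted p = 0.01827). Serpina1b and Serpina1d were called in none of the 5 comparisons. The differences of Serpina1b ran from -0.06 to 0.08 (SE 0.063, or 0.089 in the interaction) and those of Serpina1d from -0.07 to 0.16 (SE 0.081, or 0.114).

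**Figure D3:**
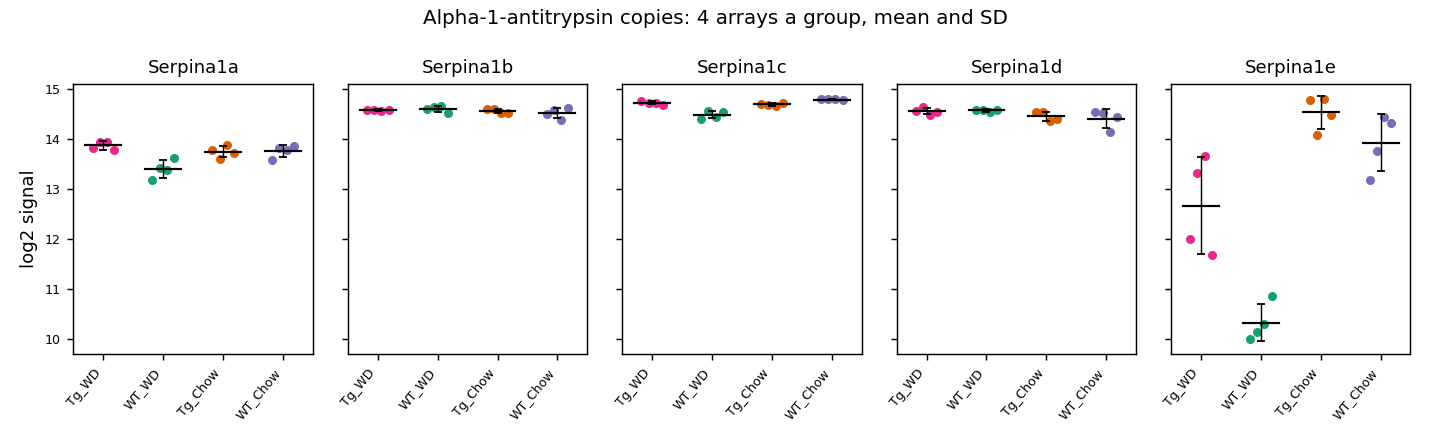
Log2 signal (vertical axis, shared) of the 5 alpha-1-antitrypsin copies in the 4 groups (horizontal axis), with 1 point per array, a horizontal line at the group mean and bars of 1 SD (n = 4). Serpina1a to Serpina1d stay between 13.19 and 14.80 in every group, while Serpina1e reaches down to 10.003 in WT_WD.

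Signals of these copies lay near the top of the array's range, which limits how differences read. Among 18138 distinct rows of an array, Serpina1b ranked 9 to 27 from the top, Serpina1c 2 to 25 and Serpina1d 10 to 39. Serpina1a ranked 49 to 116 and Serpina1e 2 to 1216. The deposited values share 1 top value of 14.83 on all arrays, and whether signals near it were compressed was not tested. Probe sequences were not used here, so each row can hold signal from the other copies, and how much it did was not tested. Raw scanner signals of Serpina1e ran from 1024 to 29750, against 21980 to 28570 for Serpina1b.

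The hormone carriers Serpina6 and Serpina7 were both lower in Tg than in WT on chow and were close between genotypes on the Western diet. Serpina6 encodes corticosteroid-binding globulin, which carries glucocorticoids in plasma. Its log2 signals were 10.45, 9.48, 9.39 and 10.03 in Tg_WD and 10.64, 10.39, 9.71 and 9.73 in WT_WD. On chow they were 8.34, 8.86, 8.31 and 8.09 in Tg_Chow and 10.29, 10.56, 10.36 and 9.60 in WT_Chow. The Tg_Chow arrays stood below all 12 others, and the other 3 groups overlapped. Tg over WT was -1.80 on chow (SE 0.26, 3.49-fold lower, limma adjusted p = 0.0003903) and -0.28 on the Western diet, which did not pass (limma adjusted p = 0.5308). The Western diet raised it by 1.44 in Tg (SE 0.26, 2.71-fold higher, limma adjusted p = 0.00283), while in WT the difference was -0.08 (limma adjusted p = 0.8624). The interaction was 1.52 (SE 0.37, limma adjusted p = 0.02492). That call was lost without WT_Chow replicate 3, Tg_Chow replicate 4, WT_WD replicate 3, Tg_WD replicate 1 or Tg_WD replicate 4 (adjusted p 0.05086 to 0.05735).

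Serpina7 encodes thyroxine-binding globulin, a plasma carrier of thyroid hormone. Its log2 signals were 10.33, 9.79, 9.33 and 10.67 in Tg_WD and 10.21, 10.29, 10.27 and 10.08 in WT_WD. On chow they were 7.38, 8.53, 7.14 and 6.87 in Tg_Chow and 9.28, 9.35, 8.45 and 8.74 in WT_Chow. Western diet arrays lay above chow arrays of the same genotype, and Tg_Chow was lowest apart from its replicate 2, which lay above WT_Chow replicate 3. It rose on the Western diet by 2.55 in Tg (SE 0.31, 5.86-fold higher, limma adjusted p = 0.0001641) and 1.26 in WT (SE 0.31, 2.40-fold higher, limma adjusted p = 0.009478). The difference of 1.29 between these effects did not pass (SE 0.44, limma adjusted p = 0.1089). Between genotypes it was -1.47 on chow (SE 0.31, 2.78-fold lower, limma adjusted p = 0.00738) and -0.18 on the Western diet (limma adjusted p = 0.7573).

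Of the genes for other plasma proteins and for non-inhibitory serpins under other symbols, 5 were tested. Angiotensinogen (Agt), a serpin by family, was called in no comparison (-0.235 in Tg over WT on the Western diet, limma adjusted p = 0.1855). Apoh, which is not a serpin, was higher in Tg on the Western diet (0.37). Albumin, which also binds steroids and thyroid hormone, was lower on the Western diet in WT (-0.39). That albumin row read only 6.41 in WT_WD and 6.80 in WT_Chow, near the filter, so it does not read the level of this abundant liver transcript. None was called between genotypes on chow, between diets in Tg or in the interaction.

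**Figure D4:**
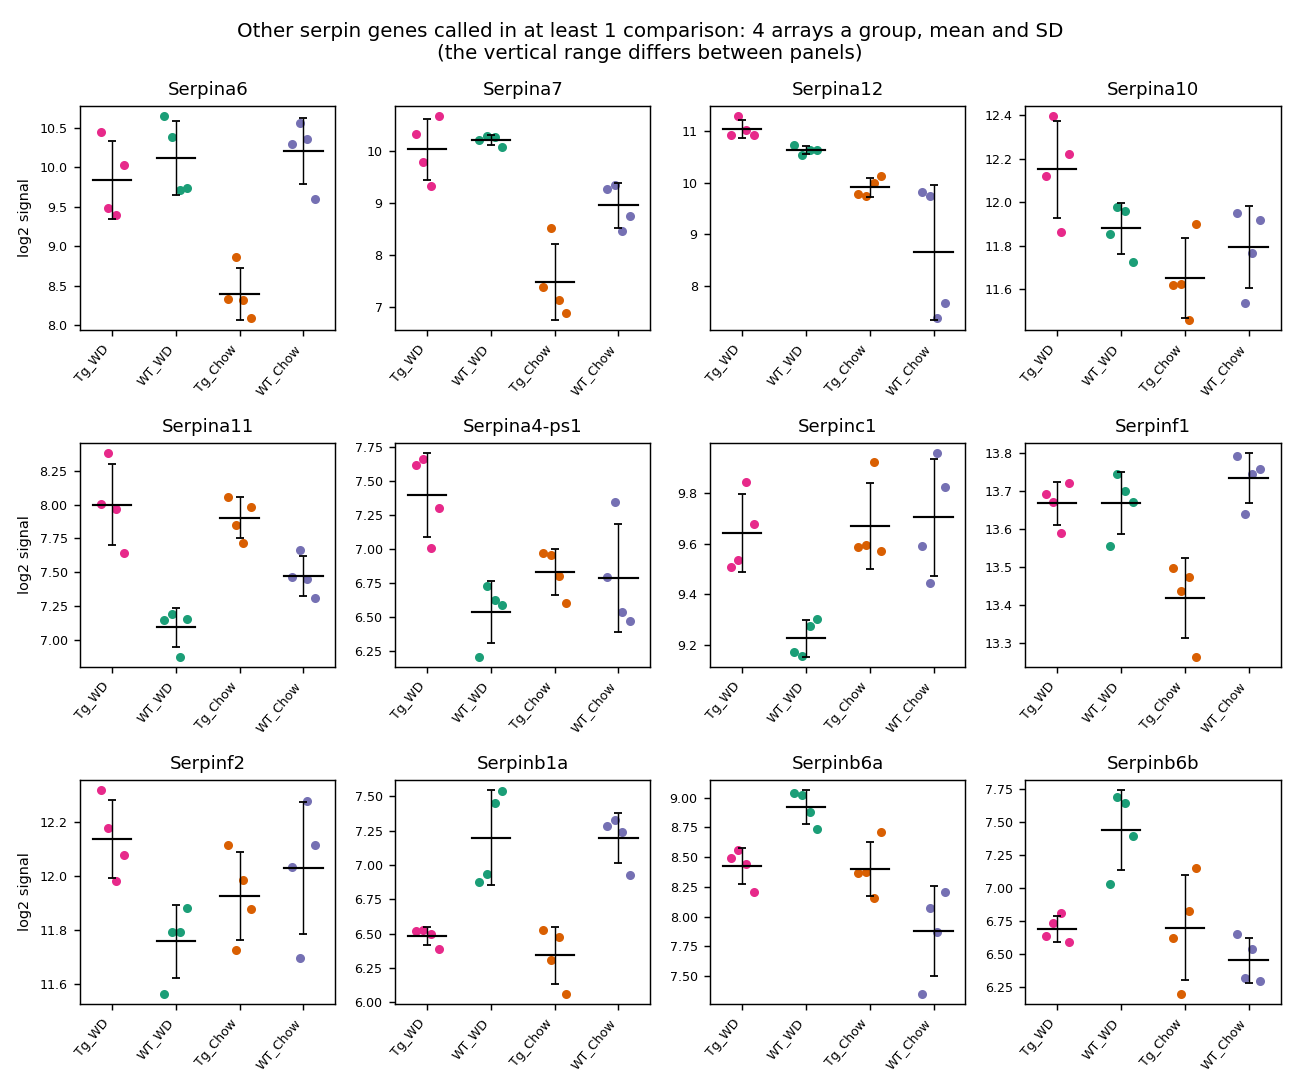
Log2 signal (vertical axes, which differ between panels) of the other 12 serpin genes called in at least 1 comparison, by group (horizontal axis), with 1 point per array, a line at the group mean and bars of 1 SD (n = 4). Serpina6 is lowest in Tg_Chow, Serpina12 has 2 low WT_Chow arrays at 7.39 and 7.68, and Serpinb6a and Serpinb6b are highest in WT_WD.

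Serpina12, which encodes vaspin, an adipokine that inhibits kallikrein 7, rose on the Western diet in WT. Its log2 signals were 10.92, 11.28, 11.02 and 10.92 in Tg_WD and 10.73, 10.53, 10.64 and 10.63 in WT_WD. On chow they were 9.77, 9.73, 9.998 and 10.13 in Tg_Chow and 9.81, 9.74, 7.39 and 7.68 in WT_Chow. WT_Chow split into 2 arrays level with Tg_Chow and 2 arrays far below them, which were replicates 3 and 4. The rise in WT was 1.98 (SE 0.40, 3.93-fold higher, limma adjusted p = 0.002254), but 0.85 in replicates 1 and 2 alone and 3.10 in replicates 3 and 4 alone. In Tg it was 1.12, with no overlap between diets, and did not pass (SE 0.40, limma adjusted p = 0.08498). Genotype gave 0.40 on the Western diet (limma adjusted p = 0.5636), again with no overlap, and 1.25 on chow (limma adjusted p = 0.05654). The single SE of 0.40 is pooled over the groups and holds the spread of WT_Chow (SD 1.30) together with SDs of 0.083 to 0.189 in the other groups. With only the arrays of the groups compared, the Western diet difference between genotypes passed (SE 0.088, adjusted p = 0.009227), as did the diet difference in Tg (SE 0.112, adjusted p = 0.0004293). On chow the genotype difference passed with rows above the 75th percentile (adjusted p = 0.04741) and with replicates 1 and 2 against 3 and 4 as a term (adjusted p = 0.04193).

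Serpina11, a clade A gene next to the antitrypsin copies, was higher in Tg on both diets. It was 8.003, 8.38, 7.97 and 7.64 in Tg_WD against 7.15, 7.19, 6.87 and 7.16 in WT_WD. It was 8.06, 7.85, 7.72 and 7.99 in Tg_Chow against 7.47, 7.66, 7.45 and 7.31 in WT_Chow. Tg and WT did not overlap on either diet. Tg over WT was 0.91 on the Western diet (SE 0.13, 1.88-fold higher, limma adjusted p = 0.0001163) and 0.43 on chow (SE 0.13, 1.35-fold higher, limma adjusted p = 0.04165). In WT the Western diet gave -0.38 (SE 0.13, limma adjusted p = 0.04623). The interaction of 0.48 did not pass (limma adjusted p = 0.1485).

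The call of Serpina11 on chow was lost with median scaling (adjusted p = 0.05962), with no filter (adjusted p = 0.06215) and without any 1 of 10 arrays (adjusted p 0.05033 to 0.1009): replicates 1, 3 and 4 of WT_Chow, 1, 2 and 4 of Tg_Chow, 1, 2 and 4 of WT_WD and 1 of Tg_WD. Its diet call in WT was lost with normexp-corrected signals (adjusted p = 0.05309), with median scaling (adjusted p = 0.06524), with no filter (adjusted p = 0.06894) and without any 1 of 10 arrays (adjusted p 0.05349 to 0.1425): replicates 1, 2 and 3 of WT_Chow, 2 of Tg_Chow, all 4 of WT_WD and 1 and 3 of Tg_WD.

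Serpina4-ps1, whose symbol marks it as a pseudogene, was higher in Tg on the Western diet. It was 7.62, 7.66, 7.005 and 7.30 in Tg_WD against 6.21, 6.73, 6.63 and 6.59 in WT_WD, with no overlap. It was 6.97, 6.95, 6.80 and 6.60 in Tg_Chow against 6.79, 7.34, 6.54 and 6.47 in WT_Chow, where the arrays overlapped. The genotype difference was 0.86 on the Western diet (SE 0.18, 1.81-fold higher, limma adjusted p = 0.003473), with 1.17 in replicates 1 and 2 alone and 0.54 in replicates 3 and 4 alone. WT_WD replicate 1 lay under the filter, so this fold is uncertain in size. The diet difference in Tg was 0.56 and the interaction 0.81, and neither passed (limma adjusted p = 0.05604 and limma adjusted p = 0.07457). Both passed with the replicate number as a block (adjusted p = 0.02528 and adjusted p = 0.03639), and the diet difference also with only the 8 Tg arrays (adjusted p = 0.03294).

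Serpina10 encodes the protein Z-dependent inhibitor of coagulation factor Xa. It was 12.12, 12.39, 11.87 and 12.22 in Tg_WD against 11.62, 11.63, 11.46 and 11.90 in Tg_Chow. Tg_WD replicate 3 lay just below Tg_Chow replicate 4, and all other Tg_WD arrays lay above the chow group. It rose in Tg by 0.50 (SE 0.12, 1.41-fold higher, limma adjusted p = 0.01379), a call lost without Tg_WD replicate 2 (adjusted p = 0.05293). WT_WD arrays ran from 11.73 to 11.98 and WT_Chow arrays from 11.54 to 11.95, and that difference of 0.085 did not pass (limma adjusted p = 0.6641). Serpina3n, an acute phase inhibitor of the antichymotrypsin kind, was called in no comparison, with differences from -0.21 to 0.32 and group means of 12.71 in Tg_WD, 12.74 in WT_WD, 12.60 in Tg_Chow and 12.43 in WT_Chow.

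Among serpins of coagulation and fibrinolysis, Serpinc1 and Serpinf2 were higher in Tg than in WT on the Western diet, by 1.33-fold and 1.30-fold. Serpinc1 encodes antithrombin, which inhibits thrombin and factor Xa with heparin as cofactor. It was 9.51, 9.54, 9.84 and 9.68 in Tg_WD against 9.17, 9.16, 9.28 and 9.30 in WT_WD. It was 9.59, 9.59, 9.92 and 9.57 in Tg_Chow against 9.59, 9.44, 9.96 and 9.82 in WT_Chow. WT_WD lay below every array of the other groups. Genotype on the Western diet gave 0.41 (SE 0.11, limma adjusted p = 0.01694) and Western diet over chow in WT was -0.48 (SE 0.11, 1.39-fold lower, limma adjusted p = 0.005917). The first call was lost with median scaling (0.29, adjusted p = 0.2094) and without WT_WD replicate 2 or Tg_WD replicate 3 (adjusted p 0.05043 to 0.06006). The interaction of 0.45 did not pass (limma adjusted p = 0.113), but did with the replicate number as a block (adjusted p = 0.02787).

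Serpinf2 encodes alpha-2-antiplasmin, the main inhibitor of plasmin. It was 12.32, 12.18, 11.98 and 12.08 in Tg_WD against 11.56, 11.79, 11.79 and 11.88 in WT_WD, with no overlap. On chow it ran from 11.73 to 12.12 in Tg_Chow and from 11.70 to 12.28 in WT_Chow. Its genotype difference on the Western diet was 0.38 (SE 0.12, limma adjusted p = 0.03512), with 0.57 in replicates 1 and 2 alone and 0.19 in replicates 3 and 4 alone. The call was lost with median scaling (adjusted p = 0.07865), with no filter (adjusted p = 0.05252) and without replicate 1, 2 or 3 of WT_WD or replicate 1, 2 or 4 of Tg_WD (adjusted p 0.052 to 0.1171). Serpind1, which encodes the thrombin inhibitor heparin cofactor II, was called in no comparison, with differences of -0.11 to 0.22 (SE 0.16, or 0.22 in the interaction). Its lowest array was WT_Chow replicate 1 at 10.52, against 11.21 to 11.61 on the other 15.

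Serping1, which encodes C1 inhibitor, the brake on complement C1 and plasma kallikrein, was also called in no comparison. Its arrays ran from 13.08 to 13.45 in Tg_WD and from 12.87 to 13.09 in WT_WD, and this difference of 0.25 did not pass (SE 0.087, limma adjusted p = 0.06506). Serpinf1 encodes pigment epithelium-derived factor, a secreted serpin that limits vessel growth and inhibits no protease. It was 13.50, 13.44, 13.48 and 13.27 in Tg_Chow against 13.79, 13.64, 13.74 and 13.76 in WT_Chow, with no overlap. It ran from 13.59 to 13.72 in Tg_WD and from 13.56 to 13.74 in WT_WD. On chow Tg over WT was -0.32 (SE 0.068, 1.24-fold lower, limma adjusted p = 0.008153), and with only the 8 chow arrays in the fit it did not pass (adjusted p = 0.0544). In Tg the Western diet gave 0.25 (SE 0.068, limma adjusted p = 0.02853). That call was lost with median scaling (adjusted p = 0.2336), with only the 8 Tg arrays (adjusted p = 0.06196) and without replicate 2 or 4 of Tg_Chow or replicate 1, 2 or 4 of Tg_WD (adjusted p 0.05008 to 0.07857).

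The tested clade B serpins, of the clade that acts mainly inside cells, were all lower in Tg than in WT on the Western diet. Their other comparisons differed from gene to gene. Serpinb6a, a cytosolic inhibitor of cathepsin G, was 8.50, 8.56, 8.44 and 8.21 in Tg_WD against 9.04, 9.02, 8.88 and 8.74 in WT_WD. It was 8.36, 8.37, 8.16 and 8.71 in Tg_Chow against 7.35, 8.08, 7.87 and 8.21 in WT_Chow. WT_WD lay above every other array and WT_Chow was lowest but for its replicate 4. In WT the Western diet gave 1.04 (SE 0.15, 2.06-fold higher, limma adjusted p = 0.0001602), while in Tg the difference was 0.025 (limma adjusted p = 0.9395). Tg over WT was -0.49 on the Western diet (SE 0.15, limma adjusted p = 0.03795) and 0.52 on chow (SE 0.15, limma adjusted p = 0.04074), and the interaction was -1.02 (SE 0.22, limma adjusted p = 0.01163).

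Both genotype calls of Serpinb6a were narrow. The chow call was lost with the replicate number as a block (adjusted p = 0.05175), with only the 8 chow arrays (adjusted p = 0.1351), with median scaling (adjusted p = 0.06311) and with no filter (adjusted p = 0.06192). It was also lost without replicate 1 or 3 of WT_Chow, 1, 2 or 4 of Tg_Chow, 2 or 3 of WT_WD or 1 of Tg_WD (adjusted p 0.05 to 0.1246), and without WT_Chow replicate 1 its value was 0.35. The Western diet call was lost with no filter (adjusted p = 0.05995) and without replicate 1, 2 or 3 of WT_WD or 1, 3 or 4 of Tg_WD (adjusted p 0.0602 to 0.1101).

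Serpinb6b, a close mouse relative of Serpinb6a, was 6.64, 6.73, 6.81 and 6.59 in Tg_WD against 7.03, 7.69, 7.64 and 7.39 in WT_WD. It was 6.62, 6.197, 6.83 and 7.15 in Tg_Chow against 6.65, 6.32, 6.53 and 6.30 in WT_Chow. WT_WD was again the highest group, with only Tg_Chow replicate 4 above its lowest array. Tg_Chow replicate 2 lay under the filter and the lowest WT_Chow arrays lay near it, so differences of Serpinb6b that involve chow are uncertain in size. It rose on the Western diet by 0.99 in WT (SE 0.17, 1.99-fold higher, limma adjusted p = 0.0005315), while the difference in Tg was -0.008 (limma adjusted p = 0.9817). On the Western diet Tg over WT was -0.75 (SE 0.17, 1.68-fold lower, limma adjusted p = 0.005787). The interaction was -0.997 (SE 0.24, limma adjusted p = 0.02158), with -0.60 in replicates 1 and 2 alone and -1.39 in replicates 3 and 4 alone, and it was lost without WT_WD replicate 2 (adjusted p = 0.05213).

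Serpinb1a encodes a cytosolic inhibitor of neutrophil elastase. It was 6.52, 6.52, 6.50 and 6.38 in Tg_WD against 6.87, 6.93, 7.46 and 7.54 in WT_WD. It was 6.52, 6.31, 6.48 and 6.06 in Tg_Chow against 7.28, 7.33, 7.24 and 6.93 in WT_Chow. All 8 Tg arrays lay below all 8 WT arrays. Tg over WT was -0.72 on the Western diet (SE 0.14, 1.65-fold lower, limma adjusted p = 0.002296) and -0.85 on chow (SE 0.14, 1.80-fold lower, limma adjusted p = 0.001161). The Western diet value was -0.38 in replicates 1 and 2 alone and -1.05 in replicates 3 and 4 alone. Diet made no difference that passed (0.139 in Tg, limma adjusted p = 0.585, and 0.005 in WT, limma adjusted p = 0.9864). Tg_Chow replicate 4 lay under the filter, so the fold on chow is uncertain in size.

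Markers of other liver cells moved beside the clade B genes, and in whole liver fewer cells of a type and less RNA per cell cannot be told apart. The lists here and below were chosen with earlier results of these data known, so their counts are descriptive. Counts of called genes in this and the following lists stand against these shares of all tested genes. Tg over WT had 6.77% called higher and 8.29% lower on the Western diet, and 4.59% and 5.42% on chow. Western diet over chow had 10.3% and 9.2% in WT, and 4.86% and 4.95% in Tg. The interaction had 5.22% called. The summed linear signal of 15 macrophage markers ran from 4268 to 6597 in Tg_WD, 6797 to 10243 in WT_WD, 3688 to 6036 in Tg_Chow and 1938 to 3967 in WT_Chow, with Cd5l and Itgax under the filter. WT_WD was highest for this sum, as for Serpinb6a and Serpinb6b, whereas Serpinb1a averaged 7.20 in both WT groups. Of 13 tested macrophage markers 3 were higher and 4 lower in Tg on the Western diet (Gpnmb -2.03, Mmp12 -1.96, Lgals3 -1.82, Marco 1.46), with a median of -0.35. On chow 5 were higher (Lyz2 1.46, Vsig4 1.44, Cd14 0.74, Clec4f 0.55). On the Western diet 10 were higher and 1 lower in WT (Lgals3 2.66, Lyz2 2.60, Mmp12 2.59, Gpnmb 2.18; median 1.37) and none was called in Tg. The interaction was called for 8, of which 7 were negative (Lyz2 -2.70, Lgals3 -2.02, Mmp12 -2.01, Gpnmb -1.93).

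Sums of 15 stellate cell and matrix markers also peaked in WT_WD, at 5411 to 5976 in Tg_WD, 8424 to 9006 in WT_WD, 4765 to 5997 in Tg_Chow and 4658 to 6897 in WT_Chow, with Lox and Tagln under the filter. Of 13 tested, 10 were lower in Tg on the Western diet (Sparc -0.90, Timp1 -0.84, Col1a1 -0.82, Lum -0.81; median -0.68) and 11 higher on the Western diet in WT (Lum 1.12, Timp1 1.06, Sparc 0.94, Vim 0.79; median 0.72). All genes gave 8.29% lower in the first of these comparisons and 10.3% higher in the second. The interaction was called for 5, all negative, and no member was called between genotypes on chow or between diets in Tg. Col1a1 (6.22 in Tg_WD), Timp1 (6.13 in WT_Chow) and, among the macrophage markers, Gpnmb (6.23 in WT_Chow) lay under the filter in 1 of the groups compared, so these differences too are against background. Markers of neutrophils, the cells that release elastase and cathepsin G, were mostly near background, with 7 of 9 (Mpo, Elane, Ngp, Camp, Ltf, Retnlg and Cxcr2) under the filter. Their sums ran from 677 to 891 in Tg_WD, 712 to 975 in WT_WD, 698 to 891 in Tg_Chow and 694 to 749 in WT_Chow. Only S100a9 was called, on the Western diet in WT (0.47).

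Of 13 lymphocyte and NK markers 10 were under the filter, with sums of 1000 to 1066 in Tg_WD, 1088 to 1194 in WT_WD, 918 to 1010 in Tg_Chow and 903 to 981 in WT_Chow. Among the 3 tested only Ccl5 was called, at -0.77 in Tg over WT on the Western diet, 1.18 for diet in WT and -0.88 in the interaction. Endothelial sums (11 markers, Kdr under the filter) ran from 4475 to 4927 in Tg_WD, 4435 to 5777 in WT_WD, 4173 to 5242 in Tg_Chow and 2172 to 4239 in WT_Chow. Of 10 tested, 5 were higher on the Western diet in WT, led by Clec4g (0.86), Stab2 (0.67) and Tek (0.65). Stab2 was lower in Tg on the Western diet (-0.38), Clec4g higher in Tg on chow (0.79) and Stab1 higher on the Western diet in Tg (0.34), and none was called in the interaction. Of 5 biliary markers 3 were under the filter and none was called. Of 8 pancreatic and adipose markers 6 were under the filter, and Cela1 was called higher in Tg on the Western diet (0.74), in Tg on chow (0.54) and on the Western diet in Tg (0.49). The part of cell makeup in the serpin differences was not tested.

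Of 19 tested serine proteases of coagulation, fibrinolysis and complement, 9 were higher and 1 lower in Tg than in WT on the Western diet and 9 did not pass, against 6.77% and 8.29% of all genes, with a median of 0.25 over the list and 0.02 over all genes. Factor XI (F11), a target of antithrombin and of the protein Z-dependent inhibitor, was at 1.11, plasma prekallikrein (Klkb1), a target of C1 inhibitor, at 0.78, Habp2 at 0.50 and factor X (F10) at 0.49. On chow none of the 19 was called between genotypes. Western diet over chow gave 5 higher in Tg (F11 0.69, Klkb1 0.50, Habp2 0.47, Hgfac 0.45), and 1 higher and 4 lower in WT (Masp1 -0.48, Klkb1 -0.41, Hgfac -0.33, Masp2 -0.28). The interaction was positive for 5 (F11 0.98, Klkb1 0.90, Hgfac 0.78, Habp2 0.51).

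Of 18 listed proteases of leukocytes and lysosomes only 8 were tested, all of them cathepsins. Neutrophil elastase (Elane) and cathepsin G (Ctsg), the targets named above for Serpinb1a and Serpinb6a, lay under the filter. Of the 8 tested, 4 were higher on the Western diet in WT (Ctss 1.00, Ctsb 0.52, Ctsk 0.42, Ctsc 0.33), with a median of 0.25, and 1 in Tg (Ctsb 0.40). Over all genes 10.3% were called higher in WT and 4.86% in Tg. In Tg over WT on the Western diet Ctsk (-0.58) and Ctsb (-0.51) were lower and Ctsc (0.47) higher, and on chow Ctsb (-0.39) was lower and Ctsc (0.50) higher. None was called in the interaction.

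Of 9 tested cofactors and clearance receptors of serpins, 5 were lower in Tg than in WT on chow (Vldlr -0.93, Lrp1 -0.60, Sdc1 -0.41, Asgr2 -0.34), against 5.42% of all genes, with a median of -0.29 over the list. Lrp1 is an endocytic receptor that takes up serpin and protease complexes. On the Western diet Vldlr was lower in Tg (-1.15) and Asgr2 (0.36) and vitronectin (Vtn, 0.31) were higher. Between diets Lrp1 was at 0.88 and Asgr2 at 0.57 in Tg, and Sdc1 at -0.70, Lrpap1 at -0.24 and Vtn at -0.22 in WT. Asgr2 was called in the interaction (0.69). Vldlr averaged 6.07 in both Tg groups, under the filter, so its differences are against background and have no exact size.

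Of 20 tested protease inhibitors outside the serpin family, 3 were higher and 5 lower in Tg on the Western diet, the lower ones led by the metalloprotease inhibitors Timp1 (-0.84), Timp2 (-0.67) and Timp3 (-0.57) and by cystatin B (Cstb, -0.71), with a median of 0.09. In that comparison 6.77% of all genes were called higher and 8.29% lower. On chow Kng2 was higher in Tg (0.43). On the Western diet 4 were higher and 2 lower in WT (Timp1 1.06, Cstb 0.84, Timp2 0.60, Itih2 -0.38), and Mug2 (0.69) and Itih4 (0.43) were higher in Tg. The interaction was negative for 4 (Timp1 -0.77, Cstb -0.76, Timp3 -0.53, Cst3 -0.41). Timp1 is also counted among the stellate cell and matrix markers above.

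Acute phase proteins, the class that Serpina3n belongs to, gave 5 of 17 higher on the Western diet in WT (Lcn2 2.61, Orm2 1.53, Orm1 0.57, Cp 0.54; median 0.24) and 2 in Tg (Saa4 0.86, Itih4 0.43). The shares of all genes called higher were 10.3% in WT and 4.86% in Tg. In Tg over WT on the Western diet 2 were higher and 3 lower (Lcn2 -1.56, Apcs 0.67, Saa4 -0.58, Hamp -0.52), on chow Saa1 was higher (1.40) and Saa4 lower (-1.20), and none was called in the interaction. A list of 20 tested genes tied to growth hormone and STAT5 held male-biased genes and signalling genes such as Cish and Ghr. Of these genes 12 were higher in Tg on the Western diet (Hsd3b5 5.28, C8b 2.47, Cyp4a12b 2.19, Cyp4a12a 1.91), against 6.77% of all genes, with a median of 0.60. On chow 9 were higher and 2 lower in Tg (Hsd3b5 1.89, Socs2 1.63, Cyp4a12b 1.49, Mup21 1.29), against 4.59% and 5.42% of all genes, with a median of 0.63. On the Western diet 2 were higher and 6 lower in WT (C8b -1.61, Elovl3 -1.58, Cyp4a12a -1.54, Cish 1.39; median -0.20), and 3 were higher in Tg (Hsd3b5 3.20, Ghr 0.63, Igfals 0.47). The interaction was positive for 7 (Hsd3b5 3.38, Elovl3 1.5, C8b 1.38, Igfals 0.94). Hsd3b5 averaged 6.14 in WT_WD and 6.32 in WT_Chow, level with the filter, so its differences from WT are against a signal near background and have no exact size.

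A list of partners of the untested chaperone Serpinh1 held genes for collagens, their processing enzymes and general chaperones such as Calr and Hspa5. Of its 15 tested genes 7 were lower in Tg on the Western diet (Col4a1 -0.87, Loxl1 -0.86, Col1a1 -0.82, Col3a1 -0.68), with a median of -0.31. In WT 7 were higher on the Western diet (Loxl1 0.88, Col1a1 0.77, Col4a1 0.77, Col3a1 0.74), with a median of 0.29. Among all genes 8.29% were lower in the first comparison and 10.3% higher in the second. Plod3 was higher on the Western diet in Tg (0.35), Col4a1 was called in the interaction (-0.65), and none was called on chow. Col1a1, Col1a2 and Col3a1 stand in the stellate cell and matrix list as well, so they are not separate observations. Of 14 liver transcription factors, Foxa3 (0.50), Xbp1 (0.47) and Nr5a2 (0.29) were higher in Tg on the Western diet, Foxa3 was lower on the Western diet in WT (-0.63) and Xbp1 higher in Tg (0.45). None was called on chow or in the interaction. Of 8 tested liver markers none was called between genotypes. Between diets limma called albumin, on its row near background, at -0.39 in WT and Cps1 at -0.79 in Tg.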

How the data were processed

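Total liver RNA of 16 mice (250 ng each) was labelled with biotin and hybridised to Illumina expression arrays, per the labels' protocols. The authors deposited a scanner file per array with linear signal intensity for 25697 rows and a table of log2 values of the same arrays. How these were scaled is not stated in the sources used here. That table kept the order of the scanner signals on every array (0 breaks) and lay within 0.0631 of their quantile-normalized log2 values (median difference 0.00184). It is therefore on a log2 scale and not centred by gene, and it gave the values reported. Rows of identical values on all 16 arrays were read as 1 row (18138 distinct). Symbols came from the platform annotation, which named 23978 rows with 1 symbol, 0 with several and left 1719 unnamed. All 60 serpin rows kept their symbol in RefSeq's GRCm38.p6 table, where 23962 named rows matched.

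Rows with a mean over 16 arrays above the median of all rows (log2 6.25) were tested, with 7801 genes, in 1 limma fit of 4 group means with 12 residual degrees of freedom (limma 3.58.1 in R 4.3.3). Two-sided p-values were adjusted over all 7801 genes (Benjamini-Hochberg), and genes were called under 0.05 with no minimum fold. SE is limma's standard error and SD the spread over 4 arrays of separate mice, and that number of arrays limits the precision. The fit was checked on simulated data. Alternatives were normexp correction with an offset of 50 and quantile normalization, median scaling, no filter or the 75th percentile as filter, the mean of a gene's rows, blocks by replicate, fits on fewer groups and leaving out each array. Replicate numbers of the chow groups went together (correlations of deviations over genes from 0.135 to 0.24 between same-numbered Tg_Chow and WT_Chow arrays), so the blocked value is given where it changed a call there. Sequences were read and aligned in Python 3.11.15 with pandas 2.3.3 and biopython 1.88.

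Every gene whose symbol matched the serpin pattern is counted. Serpins under other symbols, such as angiotensinogen (Agt), are not among the members. Called members get values by array, others their levels and ranges of differences. From each list up to 4 called genes of largest change are named per comparison. The lists cover markers of liver, macrophages, neutrophils, lymphocytes, stellate cells, endothelium, bile ducts and pancreas or fat. They also cover proteases, cofactors, other inhibitors, carriers, acute phase, growth hormone, collagen and transcription factor genes. The members and the lists were chosen with earlier results of these data known.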

Additional observations from a re-analysis of the deposited data

Results flagged for a closer look

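In 4 of the 60 sets of 4 arrays looked at (15 called serpins in each group), 1 array stood apart from its group by more of the group's range than Dixon's limit for 4 values allows, and chance marks about 1 set in 20. Serpina11 was 6.874 in WT_WD replicate 3, below the other 3 arrays, with a gap of 0.868 of the range. Serpina1c was 14.776 in WT_Chow replicate 4, where the other 3 arrays share 1 value and the whole range is small. Serpinb1a was 6.385 in Tg_WD replicate 4, with a gap of 0.832 of the range. Serpinc1 was 9.923 in Tg_Chow replicate 3, above the others, with a gap of 0.937 of the range.

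The difference between the genotype effect on the Western diet and on chow passed limma's test in 5 serpins. It was 0.478 for Serpina1a, 0.333 for Serpina1c and 1.52 for Serpina6, and -1.016 for Serpinb6a and -0.997 for Serpinb6b. For Serpina1a and Serpina1c the effect was positive on the Western diet and not called on chow. For Serpina6 it was negative on chow and not called on the Western diet. Serpinb6a was lower in Tg on the Western diet and higher on chow, and Serpinb6b was lower on the Western diet and not called on chow.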

How the results depend on the processing

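No called serpin changed direction under any alternative run, leaving out an array included. Only normexp correction, median scaling and fits with fewer arrays in a group could have shown such a change. The filters, the blocks, the mean of a gene's rows and the fits on fewer groups leave the fold changes of these serpins as they are. Without 1 array, the count of serpins called ran from 7 to 11 for Tg over WT on the Western diet, 4 to 7 on chow, 8 to 9 for diet in WT, 3 to 6 for diet in Tg and 3 to 6 for the interaction. Counts over all genes moved more without 1 array, to 911 to 1380 and 415 to 930 between genotypes on the Western diet and chow, 1034 to 1665 and 471 to 1036 between diets in WT and Tg, and 260 to 474 in the interaction. The lowest came without WT_WD replicate 2, WT_Chow replicate 3, WT_WD replicate 3, Tg_WD replicate 2 and WT_Chow replicate 3, in that order. With only the 8 chow arrays 321 genes were called on chow, against 781. With rows above the 75th percentile, fewer genes were tested, and 754 were called between genotypes on the Western diet (1175 in the main setting), 859 between diets in WT (1522) and 259 in the interaction (407).

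With the replicate number as a block, 10, 5, 9, 6 and 7 serpins were called in these 5 comparisons. The block ended 1 call, that of Serpinb6a on chow, and added those of Serpina4-ps1 for diet in Tg and of Serpina4-ps1 and Serpinc1 in the interaction. Over all pairs of groups the same-numbered arrays gave correlations from -0.205 to 0.24, with 9 of 24 over 0.1, and 9 of 16 arrays correlated best with one of their own number, and 3 of 4 pairs were over 0.1 between Tg_WD and WT_WD. As not every pair passed 0.1 outside the chow groups, the numbers were not taken to pair samples there. Median scaling added calls of Serpinf1 and Serpinf2 for diet in WT and of Serpina10 and Serpinf1 in the interaction. Serpina4-ps1, Serpinb1a and Serpinb6b were not tested above the 75th percentile, so their calls have no value there. Other calls lost under a setting are given with their gene, and the cause was not tested. The number of arrays limits the precision, signals near 6.25 are near background, and those of the antitrypsin copies are near the top of the range.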
